A study of Mus musculus with 12 samples.

Results

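The genes examined here encode the proteasome and the immunoproteasome. They were the protein-coding genes named Psma, Psmb, Psmc, Psmd, Psme, Psmf or Psmg with a number, plus Pomp, without pseudogenes, and they came to 49 of the 39179 gene IDs in the deposited table of counts. They were divided by role into 16 core genes (8 alpha and 8 beta), 5 immune genes (Psmb8, Psmb9, Psmb10, Psme1 and Psme2), 17 cap genes (6 ATPases and 11 others), 8 assembly factors and 3 other activators or inhibitors. The members were taken by name and not by a cut on their values, but with earlier results of these data known.

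The study compared wild-type (WT) Th1 cells with Th1 cells of the LDHA-KO genotype, in which the gene for lactate dehydrogenase A, which makes lactate from pyruvate, is disrupted. Both groups were primary mouse T cells of the C57BL/6 background. Naive CD4+ cells were activated through CD3 (5 µg/ml of antibody) and CD28 (2 µg/ml) and grown for 3 days with 100 U/ml IL-2, 10 ng/ml IL-12 and 10 µg/ml anti-IL-4, conditions that favour Th1 cells, which make interferon-gamma. Before RNA was taken, both groups received 50 ng/ml PMA and 1 µM ionomycin for 4 h together with GolgiStop, which blocks secretion. The labels give neither the Cre or allele behind the knockout nor the age of the mice, and they do not say that replicates came from separate mice. The p-values thus rest on the spread between these libraries alone, and this spread may be technical. In RNA from whole cultures, fewer cells of a type and less RNA per cell cannot be told apart.

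The proteasome degrades proteins tagged with ubiquitin. Its core is a stack of alpha and beta rings, and 3 of the beta subunits, Psmb5, Psmb6 and Psmb7, do the cutting. A cap binds the tagged protein, removes the ubiquitin, unfolds the chain with a ring of ATPases and feeds it into the core. In lymphocytes and in cells exposed to interferon-gamma, Psmb8, Psmb9 and Psmb10 can take the place of Psmb5, Psmb6 and Psmb7, which shifts the peptides made for display on MHC class I. Psme1 and Psme2 form PA28, an activator that can sit on the core in place of the cap.

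The 4 RNA libraries held 1293178 and 1245903 counts (WT) and 919741 and 1192304 counts (LDHA-KO), so that 1 count was worth 0.773 to 1.09 CPM (counts scaled to a common library size). Proteasome genes took 0.384% to 0.405% of the counts. Ldha itself had 1055 and 1006 counts in WT against 42 and 53 in LDHA-KO, a log2 fold change of -4.09. Ifng, which encodes interferon-gamma, fell from 1583 ± 3.89 to 384 ± 3.13 CPM (SD, n = 2), by 2.04 on the log2 scale. All 7 T cell markers were detected, with 1142 to 1867 counts in sum (1417 and 1499 CPM in WT, 1242 and 1214 in LDHA-KO). Of these, Cd4 was higher in LDHA-KO (log2 fold change 0.51) and Cd2 and Cd5 were lower (-0.94 and -0.39). The B cell list summed to 4 to 14 counts, the CD8 list to 2 to 9, the NK list to 3 to 8 and the erythroid list to 0. The list of 7 myeloid and dendritic markers summed to 351 to 468 counts (338 and 337 CPM in WT, 382 and 393 in LDHA-KO), of which Csf1r made up 348 to 462, while Lyz2 and Adgre1 were at 0. Csf1r was higher in LDHA-KO (log2 fold change 0.29, edgeR adjusted p = 0.00500), and its part in the results was not tested.

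The start regions of 6 genes are shown because factors known to bind such elements are described with their own values at the end. They span 250 bases before to 50 bases after a start of the gene, read on its strand. The sequences are from RefSeq (GRCm38.p6). For Psmb8, Psme1, Psmb9 and Psmb5 this start is the first base of the gene's span. The spans of Psmb6 and Psmd2 begin further upstream, at chr11:70525324 and chr16:20651122, and the Psmd2 window does not hold that base. The regions are chr17:34197945-34198244 (plus strand), chr14:55578244-55578543 (plus strand), chr17:34187281-34187580 (minus strand), chr14:54617946-54618245 (minus strand), chr11:70525107-70525406 (plus strand) and chr16:20651402-20651701 (plus strand). Capitals mark a GAS motif (an element of genes that respond to interferon-gamma) in Psmb8 and Psmd2, an ISRE core (bound by IRF proteins) in Psme1, and an antioxidant response element, ARE (bound by Nfe2l1 or Nfe2l2 with a small Maf protein), in Psmb5 and Psmb6. In Psmb9 they mark the 225 bases between its first base and that of Tap1, a gene read in the opposite direction.
Psmb8: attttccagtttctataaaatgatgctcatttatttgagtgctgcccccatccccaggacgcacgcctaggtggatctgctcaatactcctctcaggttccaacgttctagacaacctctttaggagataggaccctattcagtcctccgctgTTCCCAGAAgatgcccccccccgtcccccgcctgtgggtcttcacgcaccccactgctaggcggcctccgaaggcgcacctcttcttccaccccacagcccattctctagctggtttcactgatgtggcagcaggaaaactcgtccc
Psme1: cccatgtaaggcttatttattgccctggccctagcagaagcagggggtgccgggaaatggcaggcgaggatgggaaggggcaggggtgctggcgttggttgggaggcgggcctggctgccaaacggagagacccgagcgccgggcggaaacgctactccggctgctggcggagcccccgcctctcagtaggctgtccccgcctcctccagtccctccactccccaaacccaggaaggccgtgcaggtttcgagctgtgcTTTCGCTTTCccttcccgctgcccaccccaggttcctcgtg
Psmb9: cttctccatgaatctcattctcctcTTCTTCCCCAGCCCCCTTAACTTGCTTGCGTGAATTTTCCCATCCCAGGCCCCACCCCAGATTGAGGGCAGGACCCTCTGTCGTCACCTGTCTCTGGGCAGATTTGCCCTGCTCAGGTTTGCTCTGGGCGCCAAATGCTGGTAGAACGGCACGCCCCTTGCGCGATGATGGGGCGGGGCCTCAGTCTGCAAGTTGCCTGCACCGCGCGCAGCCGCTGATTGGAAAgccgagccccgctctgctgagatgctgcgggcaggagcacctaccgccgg
Psmb5: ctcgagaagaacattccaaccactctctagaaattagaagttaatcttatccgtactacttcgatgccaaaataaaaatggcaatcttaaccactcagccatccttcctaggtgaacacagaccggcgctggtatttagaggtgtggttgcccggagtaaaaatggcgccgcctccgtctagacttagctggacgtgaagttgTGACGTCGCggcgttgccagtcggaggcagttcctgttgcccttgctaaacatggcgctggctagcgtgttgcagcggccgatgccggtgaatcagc
Psmb6: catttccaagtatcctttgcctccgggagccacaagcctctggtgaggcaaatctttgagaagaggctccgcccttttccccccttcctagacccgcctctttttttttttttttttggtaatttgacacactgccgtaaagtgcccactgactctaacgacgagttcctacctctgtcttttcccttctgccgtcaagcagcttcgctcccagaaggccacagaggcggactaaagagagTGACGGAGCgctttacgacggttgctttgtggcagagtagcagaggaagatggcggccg
Psmd2: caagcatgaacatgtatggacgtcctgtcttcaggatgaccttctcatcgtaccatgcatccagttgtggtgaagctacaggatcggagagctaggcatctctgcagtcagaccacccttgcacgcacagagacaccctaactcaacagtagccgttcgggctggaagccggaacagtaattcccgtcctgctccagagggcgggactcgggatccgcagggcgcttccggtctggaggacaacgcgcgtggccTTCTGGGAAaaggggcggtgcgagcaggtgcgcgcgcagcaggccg

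Positions are relative to the start used for each window. The GAS motif began 97 bases before it in Psmb8 and 4 bases after it in Psmd2, inside the gene's span. The ISRE core began 9 bases after it in Psme1. The ARE began 47 bases before the start used in Psmb5 and 9 bases before that used in Psmb6, where it lay inside the gene's span. RefSeq windows were found for 41 of the 49 genes, 44 windows in all. The ARE, searched as TGACNNNGC on both strands, matched 6 of them (13.6%) against 12.4% of all 32851 windows, in Psmb5, Psmb6, Psmc6, Psmd12, Psmd9 and Psme4. GAS, searched as TTCNNNGAA, reads the same on both strands in its fixed letters and matched 3 of the 44 (6.82%) against 8.30% of all windows, in Psmb8, Psmd2 and Psmg1. The ISRE core, searched on both strands as 2 copies of GAAA with 2 bases between them, matched 5 of the 44 (11.4%) against 3.44% of all windows, in Psmb3, Psmd4, Psmd9, Psme1 and Psmg4. These matches describe letters in the reference and are not measured binding sites.

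Most proteasome genes differed little between LDHA-KO and WT. Of the 49, 46 had enough counts to be tested, and 3 passed the threshold (adjusted p under 0.05 in edgeR's quasi-likelihood test, adjusted over all 9914 tested genes): Psmd2, Psmd3 and Psma5, all higher in LDHA-KO. That is 6.52% of the members, against 31.0% of all tested genes and 29.3% of the 8673 genes with levels in the same range. By direction, 15.6% of all tested genes were higher and 15.4% lower. No member was lower in edgeR's test, where 2 (Psmd7 and Psme3) had an unadjusted p under 0.05 and a lower level. Of all 9914 tested genes, 2006 had an unadjusted p under 0.05 and a lower level. No member was lower by DESeq2, which called 1048 of all tested genes in either direction. With the libraries scaled by their totals alone, Psmd7 and Psme3 passed as lower and Psmd3 no longer passed. That scaling moved the median of all genes to -0.09 and the share of all calls that were higher to 38.3%, from 50.4%.

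The log2 fold changes of the 46 genes lay on both sides of zero, 23 above and 23 below, with a median of 0.02 beside -0.01 over all tested genes. Their median size was 0.16 on the log2 scale, against 0.35 over all tested genes. For 42 of the 46 (91.3%) the change was under 0.5 on the log2 scale, against 65.9% of all tested genes. The 95% interval lay within a 2-fold change in either direction for 38 of the 46, against 6399 of all 9914 tested genes. The interval lay within 0.5 of zero for only 23 of the 46, against 1801 of all 9914. The median SE was 0.17 for the members and 0.22 for all tested genes. The libraries of the groups did not overlap for 22 of the 46 (47.8%), against 64.3% of all tested genes. In sum, the 46 genes stood at 3938 ± 60.2 CPM in WT and 4069 ± 113 in LDHA-KO (SD, n = 2). In these scaled values the KO libraries, at 3990 and 4149, lay above the WT libraries, at 3896 and 3981. Psmd2 (mean 260 to 363 CPM) and Psmd3 (268 to 325) together rose by more than this sum did. Relative to library totals alone, the groups overlapped. There the 49 genes took up 0.384% and 0.396% of the LDHA-KO libraries, beside 0.394% and 0.405% for WT.

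**Figure D1:**
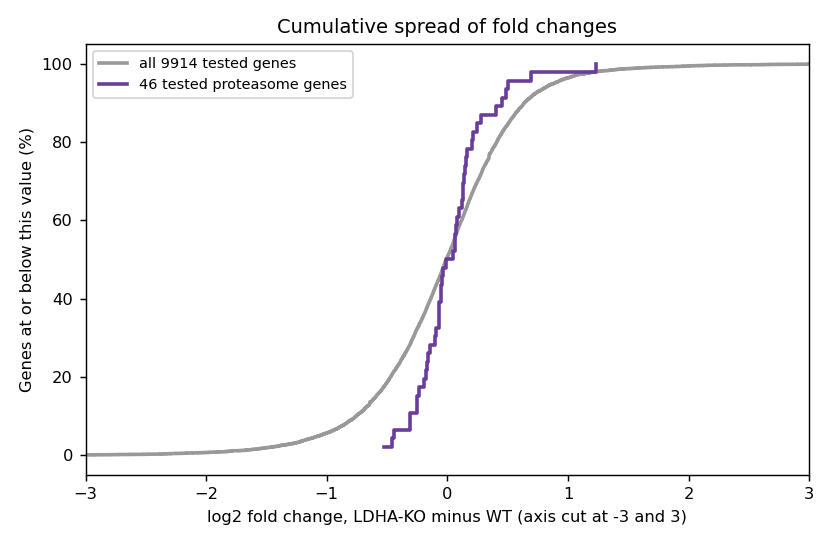
Cumulative share of genes (percent) against the log2 fold change of LDHA-KO over WT, for the 46 tested proteasome genes and for all 9914 tested genes. The proteasome curve is steeper, with 91.3% of its genes within 0.5 of zero against 65.9% of all genes.

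**Figure D2:**
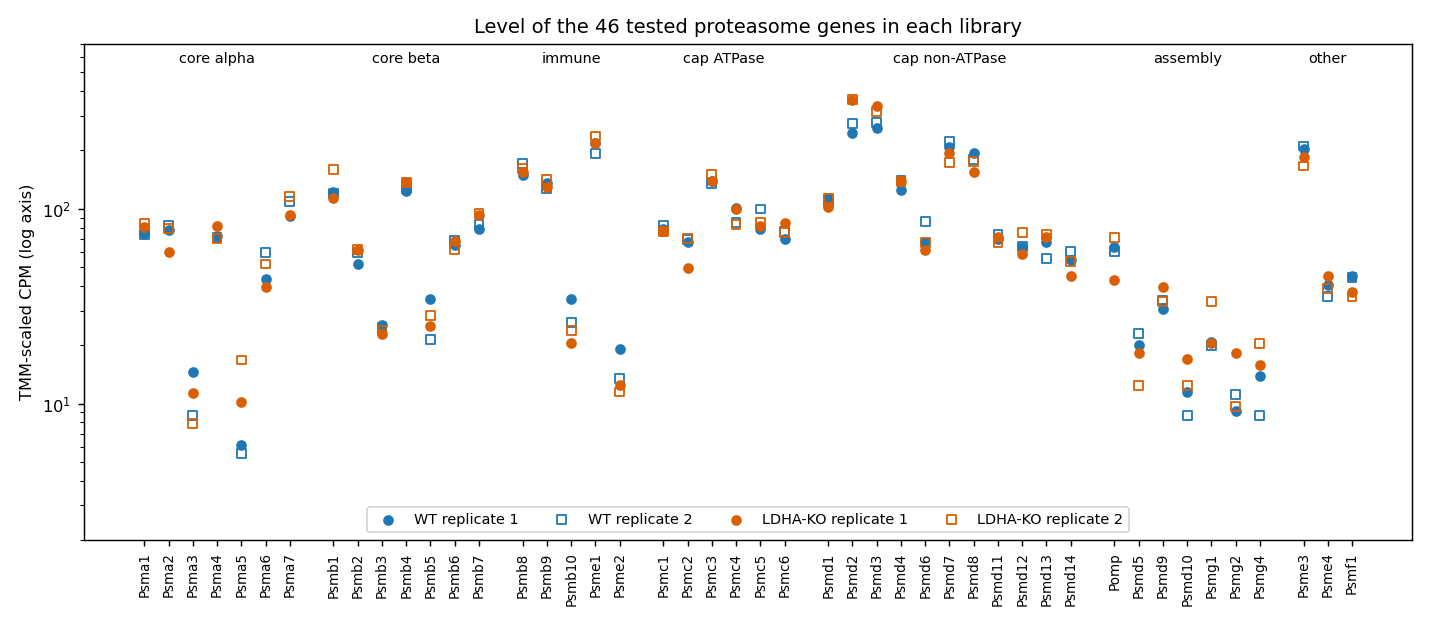
Level of each of the 46 tested genes in the 4 libraries, in CPM after TMM scaling, on a log axis and grouped by role; blue is WT, orange LDHA-KO, filled circles replicate 1 and open squares replicate 2. Levels are not per length and are to be compared within a gene only, and for most genes the 4 symbols lie close together.

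None of the immune genes, a class known to respond to interferon-gamma, passed the threshold. By edgeR, 0 of the 5 had an unadjusted p under 0.05, beside 3994 of all 9914 tested genes. By DESeq2 0 passed, beside 1048 of all tested genes. The summed level of the 5 immune genes was 556 and 529 CPM in the WT libraries and 535 and 573 in LDHA-KO, so the groups overlapped. The median log2 fold change of the 5 genes was -0.01. Psmb8, the immune counterpart of Psmb5, had 195 and 215 counts in WT against 137 and 182 in LDHA-KO, or 160 ± 14.7 and 158 ± 3.80 CPM. Its log2 fold change was -0.01, with a 95% interval of -0.25 to 0.22, or 0.843-fold to 1.16-fold. Psmb9, the counterpart of Psmb6, had 177 and 161 counts in WT against 114 and 161 in LDHA-KO, a log2 fold change of 0.05 (-0.20 to 0.30). For both genes the values of the groups overlapped.

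Psmb10, the counterpart of Psmb7, had 45 and 33 counts in WT against 18 and 27 in LDHA-KO, or 30.3 ± 5.90 and 22.1 ± 2.42 CPM. Both LDHA-KO libraries lay below both WT libraries, but the log2 fold change of -0.44 had an interval of -0.98 to 0.09 and an edgeR adjusted p of 0.211. Psme1, the alpha subunit of PA28, had 285 and 243 counts in WT against 193 and 268 in LDHA-KO, and its log2 fold change was 0.15 (-0.05 to 0.36). The span of Psme1 overlaps that of Emc9, and how the authors assigned such reads is not given in the sources used here. Psme2, its beta partner, had 25 and 17 counts in WT against 11 and 13 in LDHA-KO, a log2 fold change of -0.46 (-1.18 to 0.27). Psme2 has a near-identical copy, Psme2b, which is not a member, so its counts are uncertain. With the counts of both copies summed, a choice made after seeing the data, the log2 fold change was -0.35 with an edgeR adjusted p of 0.134, the lowest over its alternatives, which reached 0.839. The intervals of Psmb10 and Psme2 are wide at these counts, and for neither was a difference detectable.

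The 3 cutting subunits that the immune forms replace did not pass the threshold. Psmb5, which carries the chymotrypsin-like activity, had 45 and 27 counts in WT against 22 and 32 in LDHA-KO, with overlapping groups and a log2 fold change of -0.07 (-0.60 to 0.47). Its span holds the microRNA gene Mir686. Psmb6, the caspase-like subunit, had 85 and 87 counts in WT against 60 and 70 in LDHA-KO, a log2 fold change of -0.06 (-0.40 to 0.29). Psmb7, the trypsin-like subunit, had 103 and 105 counts in WT against 82 and 107 in LDHA-KO. Scaled, its LDHA-KO libraries (92.7 and 94.2 CPM) lay above its WT libraries (78.8 and 83.0), and its log2 fold change was 0.21 (-0.09 to 0.51). The span of Psmb7 overlaps the gene model Gm13586.

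The balance between immune and constitutive subunits was read as the ratio of their counts within a library, which needs no scaling between libraries. Because counts are not per length, a ratio can be compared between libraries but does not say which subunit is more abundant. Psmb8 over Psmb5 was 4.33 and 7.96 in WT and 6.23 and 5.69 in LDHA-KO, so both LDHA-KO values fell between the WT values. The ratio of summed counts in LDHA-KO was 1.04 times that in WT (95% interval 0.708 to 1.52, counting error only). Psmb9 over Psmb6 was 2.08 and 1.85 in WT and 1.90 and 2.3 in LDHA-KO, again overlapping, at 1.08 times the WT ratio (0.815 to 1.42). Psmb10 over Psmb7 was 0.437 and 0.314 in WT and 0.220 and 0.252 in LDHA-KO, without overlap, at 0.635 times the WT ratio (0.419 to 0.963). The ratios are given as values with no test. An exact two-sided permutation test of 2 libraries against 2 cannot go below p = 0.333.

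**Figure D3:**
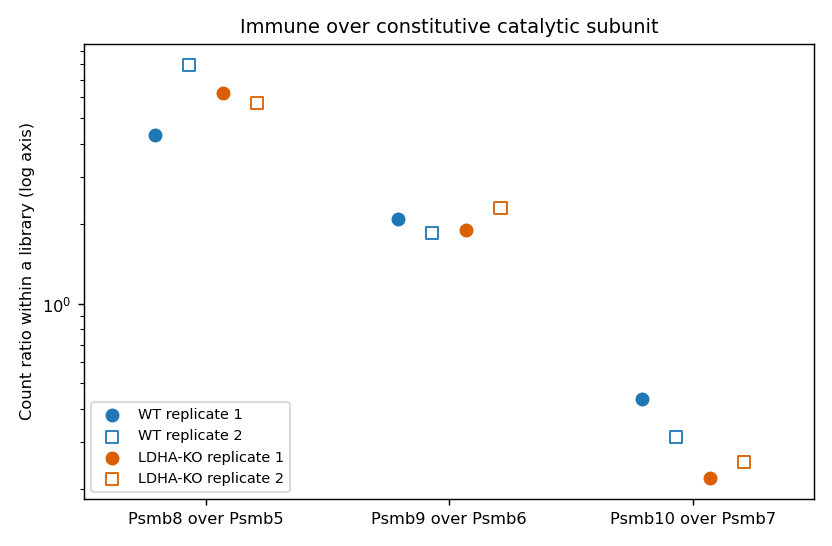
Ratio of the counts of an immune subunit to those of the constitutive subunit it replaces, in each library, on a log axis; blue is WT, orange LDHA-KO, filled circles replicate 1 and open squares replicate 2. The groups overlap for Psmb8 over Psmb5 and for Psmb9 over Psmb6, and for Psmb10 over Psmb7 both LDHA-KO values, 0.220 and 0.252, lie below both WT values.

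Among the core genes, 14 of 16 were tested and 1 passed. This was Psma5, a subunit of the alpha ring, with 8 and 7 counts in WT against 9 and 19 in LDHA-KO, or 5.83 ± 0.414 and 13.5 ± 4.63 CPM. Both LDHA-KO libraries were above both WT libraries, but they differed from each other (10.2 and 16.7 CPM). The log2 fold change was 1.23 (SE 0.45, interval 0.33 to 2.13, edgeR adjusted p = 0.0310), and it rests on few counts. It did not pass by DESeq2 (adjusted p = 0.372) or without LDHA-KO replicate 2 (0.80, edgeR adjusted p = 0.523), WT replicate 1 (1.30, 0.118) or WT replicate 2 (1.16, 0.163). Over its alternatives the adjusted p ran from 0.0293 by edgeR to 0.523.

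The other 6 tested alpha genes ran from -0.31 (Psma3) to 0.15 (Psma1) and the 7 tested beta genes from -0.10 (Psmb3) to 0.21 (Psmb7). The median of the core genes was 0.07, with 8 above and 6 below zero. In 13 of the 14 the change was under 0.5 on the log2 scale. Their summed level was 897 ± 21.4 CPM in WT and 942 ± 68.1 in LDHA-KO (SD, n = 2). Psmb1, a beta subunit that does not cut, was the core gene whose LDHA-KO libraries lay furthest apart in CPM, at 113 and 159. Psmb1 did not pass, except as higher (0.41) without LDHA-KO replicate 1. A pair of core genes had almost no counts. Psma8, the alpha subunit known from testis, had 0 in every library, which allows up to 3 counts, or 2.32 to 3.26 CPM. Psmb11, the cutting subunit known from thymic cortex, had 1 count in WT replicate 2 and 0 in the others.

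All 17 cap genes were tested and 2 rose, Psmd2 and Psmd3. Psmd2, the large base subunit on which ubiquitin receptors dock, had 321 and 346 counts in WT against 320 and 413 in LDHA-KO, from totals that were smaller in LDHA-KO. Scaled, these were 246 and 274 CPM in WT and 362 and 364 in LDHA-KO, or 260 ± 19.8 and 363 ± 1.33 (SD, n = 2). The rise was 1.40-fold (interval 1.24 to 1.58), or 0.48 on the log2 scale (SE 0.09; edgeR's test, adjusted p = 2.65e-05). Psmd2 passed the threshold under all 12 alternatives, DESeq2 and the omission of each library among them.

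Psmd3, a subunit of the lid, had 338 and 350 counts in WT against 297 and 357 in LDHA-KO, which scaled to 259 and 277 CPM in WT and 336 and 314 in LDHA-KO. The groups did not overlap, and the rise was 1.21-fold (interval 1.07 to 1.37), or 0.28 on the log2 scale (SE 0.09; edgeR's test, adjusted p = 0.0142). It did not pass with library totals alone (0.19, edgeR adjusted p = 0.0936), by DESeq2 (adjusted p = 0.222), or without WT replicate 1 (0.23, edgeR adjusted p = 0.135) or LDHA-KO replicate 1 (0.24, edgeR adjusted p = 0.107). Over its alternatives the adjusted p ran from 0.0124 by edgeR to 0.222 by DESeq2. Neither Psmd2 nor Psmd3 overlaps another RefSeq gene.

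Psmd7, the lid subunit that pairs with the deubiquitinase Psmd14, had the smallest p among the cap genes with a lower level, at 271 and 280 counts in WT against 171 and 196 in LDHA-KO. Its log2 fold change was -0.24 (-0.45 to -0.03, edgeR adjusted p = 0.0823). Psmd14 itself stood at -0.19 (-0.58 to 0.19), and Psmd4, a ubiquitin receptor of the cap, at 0.06 (-0.19 to 0.31). The 6 ATPases, Psmc1 to Psmc6, lay between -0.16 (Psmc2) and 0.13 (Psmc6). None of the 6 had an unadjusted p under 0.05 in edgeR's test, beside 3994 of all 9914 tested genes. None passed by DESeq2, beside 1048 of all tested genes. In sum the ATPases stood at 541 ± 9.83 CPM in WT and 535 ± 7.36 in LDHA-KO. The remaining non-ATPase genes ran from -0.25 (Psmd6) to 0.24 (Psmd13). The 17 cap genes together had a median of -0.04 and summed to 2042 ± 60.1 CPM in WT and 2138 ± 21.0 in LDHA-KO.

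**Figure D4:**
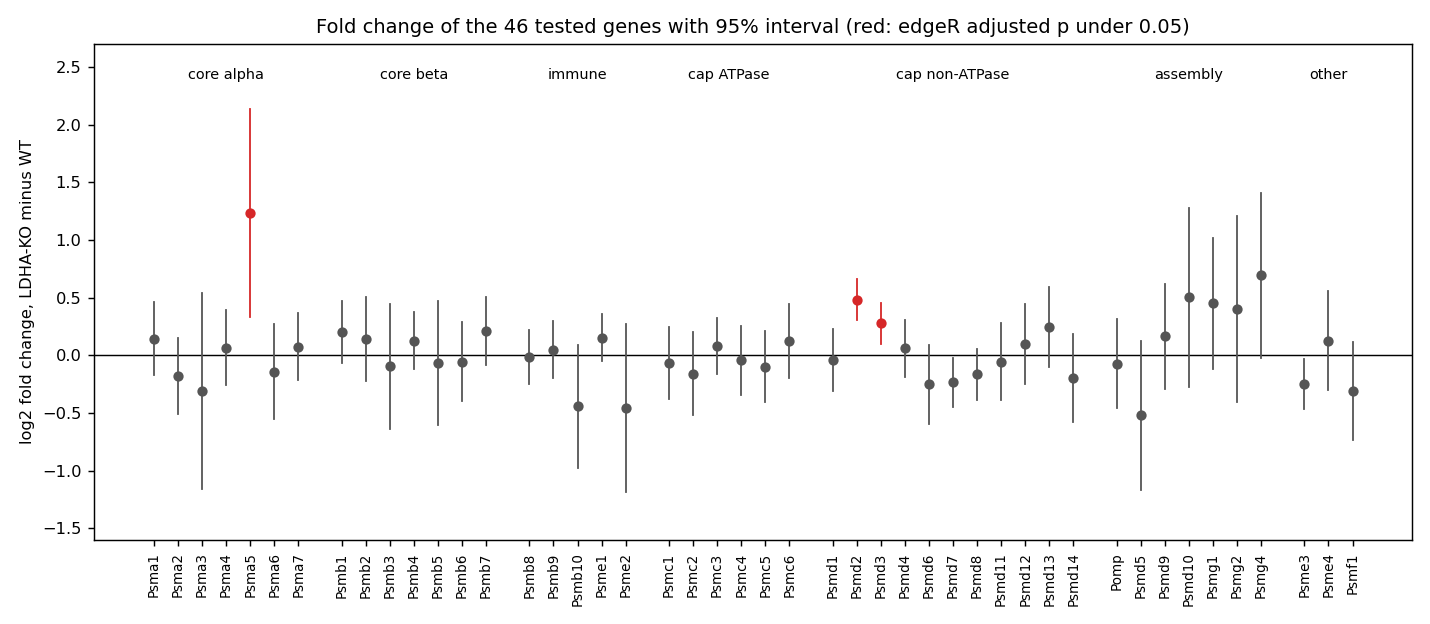
Log2 fold change of LDHA-KO over WT with its 95% interval for the 46 tested genes, grouped by role; red marks the genes past the edgeR threshold. Psma5, Psmd2 and Psmd3 are red and above zero, and the widest intervals belong to genes of few counts such as Psma5, Psma3 and the assembly factors.

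Of the assembly factors, which help to build the core and the cap but leave the finished particle, 7 of 8 were tested and none passed. By edgeR 0 had an unadjusted p under 0.05, beside 3994 of all 9914 tested genes. By DESeq2 0 passed, beside 1048 of all tested genes. Pomp, which guides the beta ring and is used up when the core matures, had 83 and 76 counts in WT against 38 and 81 in LDHA-KO. Its LDHA-KO libraries, at 43.0 and 71.3 CPM, enclosed the WT libraries, and its log2 fold change was -0.07 (-0.46 to 0.31). The members with the largest changes that did not pass were all of this class. Psmg4, a chaperone of the alpha ring, had 18 and 11 counts in WT against 14 and 23 in LDHA-KO (log2 fold change 0.69, -0.02 to 1.41). Psmd5, a chaperone of the cap's base, had 26 and 29 counts in WT against 16 and 14 in LDHA-KO (-0.52, -1.17 to 0.12). Psmd10, another base chaperone known also as gankyrin, had 15 and 11 counts in WT against 15 and 14 in LDHA-KO (0.50, -0.28 to 1.28), and its span overlaps Atg4a.

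For all 3 the scaled libraries of the groups did not overlap, yet each interval included zero at these counts. The class median was 0.40, and apart from Pomp no tested gene of the class had more than 43 counts in a library. Psmg3 was not tested, with 7 and 6 counts in WT against 5 and 4 in LDHA-KO. Of the remaining activators and inhibitors, Psme3, which forms the nuclear activator PA28-gamma, had 265 and 265 counts in WT against 162 and 188 in LDHA-KO. Scaled, it stood at 206 ± 4.79 CPM in WT and 174 ± 12.5 in LDHA-KO without overlap, a log2 fold change of -0.25 (-0.46 to -0.04, edgeR adjusted p = 0.0689). Psme4, the nuclear activator PA200, stood at 0.13 (-0.30 to 0.56) and Psmf1, an inhibitor of the core in the test tube, at -0.31 (-0.73 to 0.12). Both overlap other genes, Psme4 with Erlec1 and Psmf1 with Tmem74b.

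Genes that work beside the proteasome were taken from 6 lists of 54 genes, of which 52 were tested. Of these, 3 rose and 14 fell in LDHA-KO by edgeR's test, beside 15.6% and 15.4% of all tested genes. DESeq2 called 3 higher and 4 lower (Ubqln2, Nrd1, Stat2 and Nlrc5), beside 1048 called of all tested genes. In the list of cap partners and receptors, 2 of 13 tested fell, with a median log2 fold change of 0.07. Ubqln2 and Ubqln1, shuttles that carry ubiquitin-tagged proteins to the cap, fell by 1.34 and 0.36 on the log2 scale. Ubqln2 had 92 and 86 counts in WT against 23 and 32 in LDHA-KO, without overlap. Ubqln1 did not pass without LDHA-KO replicate 2 (-0.26) or by DESeq2 (-0.35, adjusted p = 0.157). Paaf1 had no row of its own.

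Of the 8 regulators of proteasome genes, 3 fell, beside 15.4% of all tested genes. Nfe2l1, the factor that raises transcription of proteasome genes when the proteasome is inhibited, had 227 and 198 counts in WT against 118 and 137 in LDHA-KO, a log2 fold change of -0.39 (edgeR adjusted p = 0.0115). It did not pass without WT replicate 1 (-0.31) or LDHA-KO replicate 2 (-0.30), or by DESeq2 (-0.38). Maff and Mafg, small Maf proteins that pair with it, fell by 0.69 and 0.63 on the log2 scale. Maff did not pass without LDHA-KO replicate 1 (-0.48), and neither passed by DESeq2 (adjusted p = 0.126 and 0.144). The median of the list was -0.48. The 6 members with an ARE in their window had log2 fold changes of -0.07 (Psmb5), -0.06 (Psmb6), 0.13 (Psmc6), 0.10 (Psmd12), 0.16 (Psmd9) and 0.13 (Psme4). None of them passed the threshold, beside 6.52% of all tested members and 31.0% of all tested genes. The ARE matched 13.6% of member windows and 12.4% of all windows, and a match alone does not say whether a gene is a target. Whether these factors act on the 6 genes was not tested.

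Of the 6 genes for ubiquitin and its activation, 2 fell (median -0.12). Over all tested genes 15.4% fell. Ubb, which encodes ubiquitin itself, fell by 0.35 on the log2 scale and did not pass without WT replicate 2 (-0.30), LDHA-KO replicate 1 (-0.31) or LDHA-KO replicate 2 (-0.39). In the list of 7 around p97, the ATPase that pulls tagged proteins out of complexes, Nsfl1c (-0.68) and Faf2 (-0.45), both p97 cofactors, fell (median of the list -0.16). Nsfl1c did not pass without WT replicate 2 (-0.58), LDHA-KO replicate 1 (-0.55) or LDHA-KO replicate 2 (-0.82), and Faf2 did not pass without WT replicate 1 (-0.44), WT replicate 2 (-0.45) or LDHA-KO replicate 1 (-0.31). Ubb, Nsfl1c and Faf2 did not pass by DESeq2 either (adjusted p = 0.301, 0.318 and 0.362). Ubb and Nsfl1c also missed the threshold after thinning (edgeR adjusted p = 0.0792 and 0.0695), and Faf2 with no filter on low counts or with a filter on CPM (0.0596 and 0.0527).

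Peptides left by the proteasome are trimmed and carried to MHC class I. In that list of 8, whose median was 0.01, 1 gene fell, beside 15.4% of all tested genes. This was Nrd1, a peptidase of the cytosol, with 296 and 273 counts in WT against 128 and 173 in LDHA-KO. Its log2 fold change was -0.57 (edgeR adjusted p = 4.79e-05). Tap1 and Tap2, which pump peptides into the endoplasmic reticulum, had log2 fold changes of 0.02 (-0.16 to 0.20) and 0.01 (-0.23 to 0.24). Tap1 had 392 and 351 counts in WT against 265 and 328 in LDHA-KO. It shares the stretch of 225 bases shown above with Psmb9, whose log2 fold change was 0.05.

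The regulators of immune subunits moved in both directions, with 2 of 10 tested higher, 4 lower and a median of -0.03. Over all tested genes 15.6% were higher and 15.4% lower. Jak2, a kinase of the interferon-gamma receptor, had 416 and 392 counts in WT against 413 and 525 in LDHA-KO, a log2 fold change of 0.56. Irf8 rose by 0.35 on the log2 scale and did not pass without LDHA-KO replicate 2 (0.24). Stat2 (-1.15), Nlrc5 (-1.003) and Irf1 (-0.71) fell, and so did Irf9 (-0.88), which is named here after its value was seen. Irf1, a factor induced by interferon-gamma that raises immune subunit genes, had 114 and 101 counts in WT against 44 and 59 in LDHA-KO. Nlrc5, an activator of MHC class I and Psmb9 genes, had 101 and 88 counts in WT against 30 and 44 in LDHA-KO. Irf1 did not pass by DESeq2 (-0.71, adjusted p = 0.0965), and Irf9 was not among the genes that DESeq2 called lower. Side by side, Irf1, Nlrc5, Stat2 and Irf9 were lower in LDHA-KO by edgeR's test, and Jak2 and Irf8 were higher. Of the immune genes, Psmb8 and Psmb9 stood at -0.01 and 0.05 with intervals within 0.30 of zero. Psme1 stood at 0.15, and Psmb10 and Psme2 at -0.44 and -0.46 with wide intervals that included zero. A link between these changes was not tested.

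**Figure D5:**
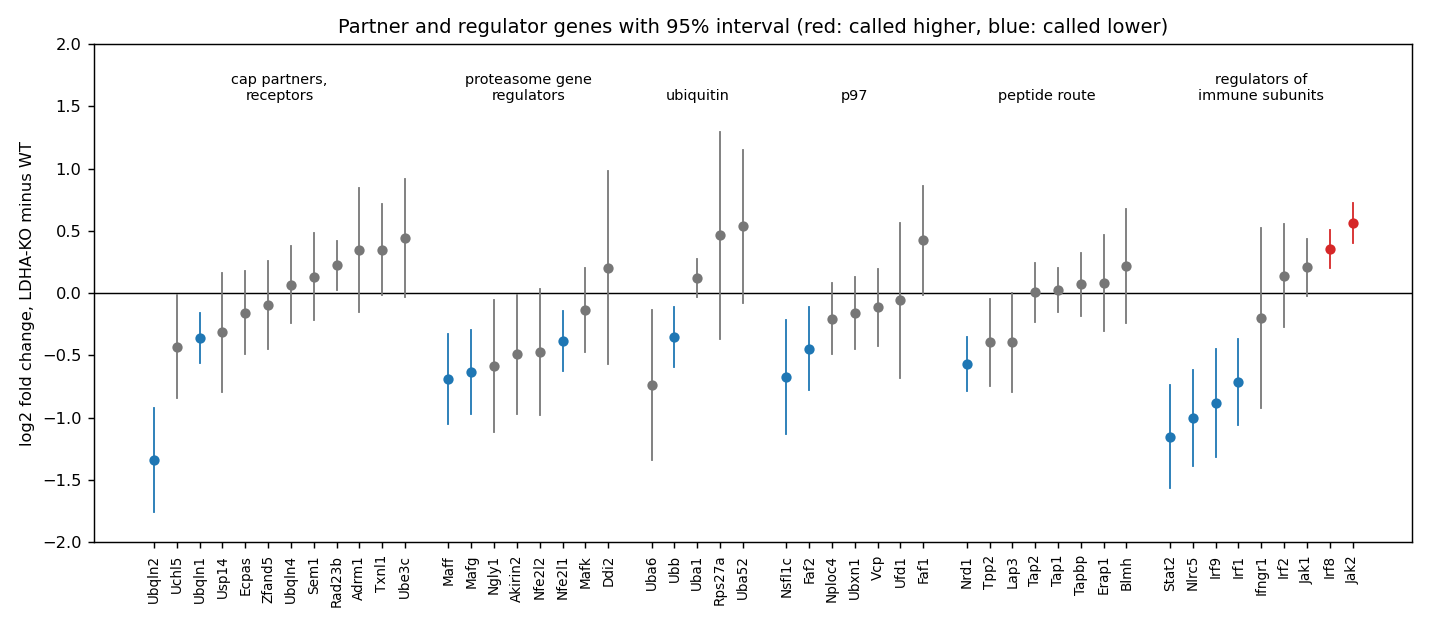
Log2 fold change of LDHA-KO over WT with its 95% interval for the 49 tested partner and regulator genes reported here, by list; red marks genes higher and blue genes lower by edgeR's test. The red genes are Jak2 and Irf8, and the lowest blue genes are Ubqln2, Stat2 and Nlrc5.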

How the data were processed

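RNA was measured in 4 of the 12 samples; the 8 chromatin samples were not analysed here. The values are counts per gene as deposited by the authors in 1 table, not normalised. Columns name genotype and number but no assay, and were taken as the RNA libraries. Per the submitters' processing notes, the tools were HTSeq 0.6.0, STAR 2.3.0e, Trimmomatic 0.33, Bowtie2 2.2.6 and FastQC 0.11.2, in no stated order, on mm10 (GRCm38). The sources used here give no annotation, strand setting or handling of multiply mapped reads, so counts of overlapping genes and near-identical copies are uncertain.

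Of 43374 rows, 4195 identical repeats were removed, leaving 39179 IDs, 37607 with a symbol. The main test was edgeR 4.0.16 (R 4.3.3), quasi-likelihood, TMM scaling, filterByExpr and Benjamini-Hochberg adjustment over 9914 genes. Alternatives were DESeq2 1.42.0, other scalings and filters, thinning to 919741 counts, a replicate block and leaving out each library. The scripts were tested on simulated data. CPM are TMM-scaled unless a marker sum. Replicates of a genotype differed over all genes by slightly more than counting noise (chi-square per gene 1.15 in WT, 1.22 in LDHA-KO), and over the members by no more than it (0.824 and 1.05). Intervals on ratios and limits on a count of 0 cover counting error only. A total of 13 members overlap another RefSeq gene.

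The members and lists were chosen with earlier results of these data known. Named were the immune genes, their constitutive counterparts, Psme3, Pomp, every member past the threshold, the 3 largest changes that did not pass, and up to 4 called genes per partner list, with Ldha, Ifng, Irf1, Tap1, Tap2 and Nfe2l1 always. Some genes of the partner lists enter the counts and medians but are not reported here by name.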

Additional observations from a re-analysis of the deposited data

How the results depend on the processing

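Of the alternatives tried, leaving out 1 library gave 1973 to 2412 called genes of all tested, DESeq2 1048 and the main test 3076. Proteasome genes called higher numbered 1 by DESeq2 and 1 to 3 when 1 library was left out, and those called lower 2 with library totals alone. DESeq2 called 4 partner genes lower. With library totals alone the median log2 fold change was -0.013 for core, -0.098 for immune and -0.13 for cap genes. With 1 library left out these medians ran from -0.0042 to 0.11 (core), -0.11 to 0.018 (immune) and -0.058 to 0.036 (cap), and the log2 ratio of Psmb8 over Psmb5 from -0.43 to 0.45. The signs near zero were not stable. Psmb8 stood at 0.069 after thinning and at -0.11 to 0.080 with 1 library left out, Psmb9 at -0.034 with library totals alone and -0.020 to 0.12 with 1 left out, Psmb5 at -0.37 to 0.32, Psmb6 at -0.11 to 0.028 and Pomp at -0.52 to 0.22. Tap1 stood at -0.059 with library totals alone, -0.043 after thinning and -0.031 to 0.081 with 1 library left out, and Tap2 at -0.078 and -0.090 to 0.11. The cause of these shifts was not tested.

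Replicate numbers are not said to pair samples, and deviations of same-numbered libraries had a correlation of -0.028 across genes. With a replicate block, 2803 genes were called, and 2 proteasome genes were higher, Psmd2 and Psmd3; Psma5 stood at 1.20 (edgeR adjusted p = 0.0527). After thinning, Psma5 had too few counts to be tested. Low counts limit Psma5, Psmb10, Psme2 and the assembly factors.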

Other observations

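Psme2b, the near-identical copy of Psme2 on another chromosome, had more counts than Psme2 in every library, with 66 and 63 in WT and 36 and 45 in LDHA-KO. Its libraries stood at 50.5 and 49.8 CPM in WT and at 40.7 and 39.6 in LDHA-KO without overlap, a log2 fold change of -0.32 (95% interval -0.73 to 0.08, edgeR adjusted p = 0.232). How reads shared by the copies were counted is not given in the sources used here. The pseudogene rows Psmb5-ps, Psmb6-ps and Psmb7-ps2, left out of the members, had 0 counts in every library. Ifngr2, a chain of the interferon-gamma receptor, had too few counts to be tested, with 7 and 6 in WT and 0 and 1 in LDHA-KO.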
